A study of Mus musculus with 11 samples.

Results

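The genes described here make cholesterol and fatty acids, or sense and export them: 32 genes of the 35683 in a table of colon gene expression, chosen by name. They fall into a cholesterol arm of 22 genes, a fatty acid arm of 7 and a liver X receptor arm of 3. RNA was sequenced from the full thickness of the colon wall of 11 mice at 2 weeks of age, before weaning. There were 6 mice of genotype Tnfr1-/-, which lack TNFR1, a receptor through which the cytokine TNF signals, and 5 of genotype Wildtype, called WT here. No treatment is named for either genotype, and sex, litter, strain background and batch are not given in the sources used here. Whether the mice came from separate litters is also not given. The p-values set the genotype difference against the spread between these animals and treat each mouse as independent. If mice of a genotype shared litters, p may be too small. The question of the series is what loss of TNFR1 does in young mice. Values are abundances: TPM, a share of the library's transcripts that is corrected for transcript length, scaled by a factor for each library, and summed over the transcripts of a gene.

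Cells build cholesterol from acetyl-CoA by way of mevalonate, isoprenoid units, squalene and lanosterol. When membranes run short of sterol, the transcription factor SREBP-2, encoded by Srebf2, is carried out of the endoplasmic reticulum, cut and sent to the nucleus, where it turns on nearly every enzyme of that route; INSIG proteins hold it back when sterol is plentiful. SREBP-1, encoded by Srebf1, drives fatty acid synthesis, and liver X receptors respond to oxidised cholesterol by turning on exporters such as ABCA1 and ABCG1. In the suckling gut these pathways run beside a milk diet rich in fat, in an epithelium that renews itself and so needs new membrane.

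Genes of the cholesterol arm have promoter sequence in common, and a few promoters are shown because these genes also varied together from mouse to mouse, as described below. RefSeq start sites on GRCm38.p6 matched 25 of the 32 genes; Fdps, Fdft1, Sqle, Stard4, Scd1, Scd2 and Abcg1 were not matched. In the 250 bases before each start, the CCAAT box (CCAAT or its complement ATTGG, the site of the factor NF-Y, which works beside SREBP) was found in 17 of 18 cholesterol arm genes, 2 of 5 fatty acid genes and 0 of 2 liver X receptor genes. It was found for 37.5% of the 27025 genes in the promoter table. A gene with several start sites was counted if any of its windows held the motif. The only Acaca window (chr11:84195188-84195437) lies well inside the annotated gene, which starts at 84129672, so an upstream start of that gene was not searched. A sterol regulatory element, the site that SREBP binds, was searched as TCACNCCAC on both strands. It was found in 1 matched gene, Hmgcs1, and for 1.22% of all genes. With 1 more letter free (TCACNCNAC) Nsdhl was added, as TCACCCAAC beginning 205 bases before its start, against 2.65% of all genes. A match is a description of letters and says nothing of binding, and no match says only that these letters are not in the window. The upstream windows of 5 genes follow, 5′ to 3′ on the gene's own strand, with capitals marking the searched motifs: CCAAT boxes, the sterol regulatory element, and the E-box CACGTG, which was found in 5 of 25 matched genes and for 6.86% of all genes. No motif overlaps another of a different kind in these windows; in Fasn, a pair of CCAAT boxes on opposite strands overlap.

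Hmgcs1 (chr13:119690101-119690350, plus strand): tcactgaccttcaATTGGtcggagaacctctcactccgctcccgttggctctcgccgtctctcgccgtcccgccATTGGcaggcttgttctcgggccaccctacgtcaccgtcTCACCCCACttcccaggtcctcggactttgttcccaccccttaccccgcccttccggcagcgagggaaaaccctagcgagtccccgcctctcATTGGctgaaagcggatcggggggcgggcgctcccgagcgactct
Mvd (chr8:122443423-122443672, minus strand): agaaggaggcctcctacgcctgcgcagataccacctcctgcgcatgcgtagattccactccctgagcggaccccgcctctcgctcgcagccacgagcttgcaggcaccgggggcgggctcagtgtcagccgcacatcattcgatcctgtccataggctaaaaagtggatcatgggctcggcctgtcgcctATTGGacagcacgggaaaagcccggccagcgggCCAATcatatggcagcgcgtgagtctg
Ebp (chrX:8193513-8193762, minus strand): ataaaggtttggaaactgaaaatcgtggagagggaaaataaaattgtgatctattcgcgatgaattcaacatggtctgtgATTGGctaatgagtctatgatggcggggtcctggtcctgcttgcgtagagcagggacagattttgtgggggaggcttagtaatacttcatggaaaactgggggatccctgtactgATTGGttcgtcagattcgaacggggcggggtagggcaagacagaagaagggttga
Fasn (chr11:120824548-120824797, minus strand): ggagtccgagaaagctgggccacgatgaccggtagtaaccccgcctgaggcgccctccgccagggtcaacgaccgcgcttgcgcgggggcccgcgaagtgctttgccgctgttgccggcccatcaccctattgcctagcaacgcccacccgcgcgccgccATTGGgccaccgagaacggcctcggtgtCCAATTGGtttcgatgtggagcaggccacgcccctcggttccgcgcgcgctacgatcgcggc
Abca1 (chr4:53159896-53160145, minus strand): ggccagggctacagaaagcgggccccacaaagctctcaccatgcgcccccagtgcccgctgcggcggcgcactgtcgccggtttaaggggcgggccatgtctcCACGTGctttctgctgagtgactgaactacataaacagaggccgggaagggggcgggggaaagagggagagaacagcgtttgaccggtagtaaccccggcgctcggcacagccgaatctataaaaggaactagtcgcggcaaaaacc

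In Hmgcs1 the sterol regulatory element begins 137 bases before the start, and CCAAT boxes begin 237, 176 and 45 bases before it. Mvd and Ebp, which act early and late in the cholesterol route, each hold 2 CCAAT boxes and no sterol regulatory element in this window. Fasn, the fatty acid synthase, holds 3 CCAAT boxes, and Abca1, the liver X receptor target, holds none but has an E-box that begins 147 bases before its start.

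The labels of the libraries were checked on the deleted gene. Tnfrsf1a, which encodes TNFR1, was at 67.1 ± 5.04 (SD, n = 5) in WT against 22.4 ± 3.54 (SD, n = 6) in Tnfr1-/-, and the groups did not overlap. It was the 1 gene of the 15079 tested that passed limma's test at an adjusted p under 0.05, or 0.00663% of those tested. The table gives no read totals; estimated depth was 29.5 to 39.7 M reads per Tnfr1-/- library and 27.6 to 42.0 M per WT library. All 12 epithelial markers and all 7 smooth muscle markers were measured above the test's minimum, as a full colon wall should give. So were 8 of 9 sebaceous gland and skin markers, which are not colon genes and return below beside Scd1. WT replicates 1 and 2 stood apart from the other libraries in epithelial markers, with mean deviations of 0.60 and 0.78 on the log2 scale from each gene's mean over the 11 libraries, against at most 0.26 elsewhere. The differences they move most are given with and without them, here or in the closing section. In bulk tissue, fewer cells of a type and less RNA per cell cannot be told apart.

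None of the 32 genes differed between Tnfr1-/- and WT colons at an adjusted p under 0.05. Each was abundant enough to test, with a value of at least 1 in at least 5 libraries. Their adjusted p ran from 0.289 to 0.994 (limma, adjusted over all 15079 genes). At an unadjusted p under 0.05 there were 3 of 32 (9.38%), Nsdhl and Nr1h3 lower and Abca1 higher in Tnfr1-/-, against 9.37% of all genes tested (5.17% lower, 4.2% higher), so the share among these genes was that of the background. All genes at that bound split into 634 higher and 779 lower, and into 646 higher and 506 lower when columns were rescaled to the same total. The groups did not overlap for 1 of the 32, Nsdhl, against 1.49% of all genes. The data bounded the differences closely. For 31 of 32 genes the 95% interval stayed within 1.5-fold in both directions, all but Scd1, as it did for 82.3% of all genes, many of which are less abundant.

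**Figure D1:**
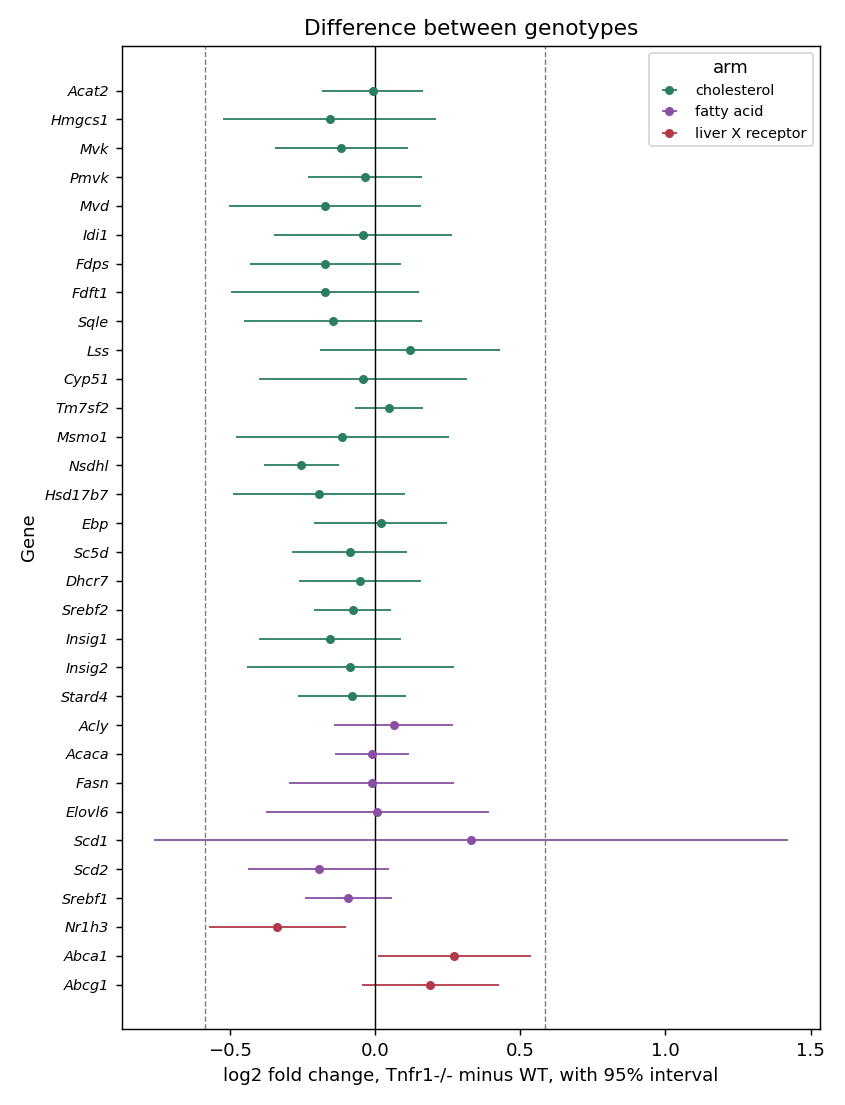
The log2 fold change of each of the 32 genes (Tnfr1-/- minus WT, on the log2(abundance + 0.5) scale) is a point with its 95% interval from limma, coloured by arm; dashed lines mark 1.5-fold either way. Only Scd1, from -0.76 to 1.42, has an interval that crosses the dashed lines, and Nsdhl, Nr1h3 and Abca1 have intervals that do not reach 0, before adjustment for the number of genes tested.

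The cholesterol arm was expressed as a full set in the colon at this age. Its most abundant enzymes, as means over the 11 libraries, were Hmgcs1 at 136 (HMG-CoA synthase, which makes the precursor of mevalonate), Msmo1 at 102 (a sterol methyl oxidase), Fdps at 101 (farnesyl diphosphate synthase) and Ebp at 83.9 (a sterol isomerase). Its least abundant enzyme was Hsd17b7, a sterol ketoreductase, at 9.64. The rest of the enzymes lay between 22.3 for Lss, the lanosterol synthase, and 68.2 for Idi1, the isopentenyl diphosphate isomerase. Msmo1 and Fdps differed by less than the SD of either, so their order is not fixed by these data.

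In Tnfr1-/- colons 19 of the 22 cholesterol arm genes had a negative log2 fold change, with a median of -0.09, against -0.0061 for all 15079 genes, of which 52.1% were negative. That count changed with the libraries used. It was 16 without WT replicate 1 and 15 without WT replicate 2. Without WT replicates 1 and 2, an alternative added after the data were seen, 6 of 22 were negative and the median was 0.04. Leaving out the highest WT libraries raises these differences by construction. With sample quality weights, which give less weight to libraries far from the rest, 9 of 22 were negative and the median was 0.01. Epithelial markers moved the same way: 12 of 12 had a negative log2 fold change, with a median of -0.15. Here too WT replicates 1 and 2 stood high, with mean deviations of 0.60 and 0.78. WT replicates 3 to 5 were at -0.33, -0.20 and -0.28, all within the range of Tnfr1-/- colons, which ran from -0.35 to 0.26. The marker differences without WT replicates 1 and 2 are not given here. The summed level of the 12 markers was 8431 to 14071 in WT and 7991 to 10876 in Tnfr1-/-, with none at 0 in any library. Proliferation markers were as uniform, with 9 of 9 negative, a median of -0.15, and summed levels of 375 to 506 in WT and 371 to 416 in Tnfr1-/-. The part of epithelial content or of dividing cells in the cholesterol arm was not tested.

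Nsdhl was the cholesterol arm gene with the smallest p. It encodes the sterol dehydrogenase that, with Msmo1 and Hsd17b7, removes the methyl groups at carbon C-4 of the ring, and lies on chromosome X at 72918557 to 72958514 (GRCm38, ENSMUSG00000031349). Nsdhl abundance was 29.3, 32.5, 28.7, 27.7 and 26.9 in WT replicates 1 to 5. In Tnfr1-/- its lowest value was 21.9, its median 24.4 and its highest 25.6. Every Tnfr1-/- colon was thus below every WT colon, with a gap between the groups of about the size of the SD in Tnfr1-/-. Nsdhl was at 29.0 ± 2.17 (SD, n = 5) in WT against 24.2 ± 1.34 (SD, n = 6) in Tnfr1-/-. Its log2 fold change was -0.25 (SE 0.06, 95% interval -0.38 to -0.13, limma adjusted p = 0.289), which did not pass. The log2 fold change stayed negative in 21 of 21 other settings, from -0.28 to -0.19, with limma adjusted p from 0.139 to 0.568. Without WT replicates 1 and 2 it was -0.19. Since the groups do not overlap, the settings that left out libraries could not have turned its sign.

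The partners of NSDHL in that step did not share its separation of groups. Hsd17b7 was at 10.004, 13.3, 10.2, 10.02 and 8.36 in WT replicates 1 to 5, and at 6.62, 9.01 and 11.4 as lowest, median and highest in Tnfr1-/-. The groups overlapped widely, and the log2 fold change was -0.19 (limma adjusted p = 0.688, SE 0.13). Msmo1 was at 106 ± 24.4 (SD, n = 5) in WT against 98.03 ± 19.2 (SD, n = 6) in Tnfr1-/-, also with overlap. Ebp, which like Nsdhl lies on chromosome X, was at 83.9 ± 15.4 and 84.03 ± 5.32, with a log2 fold change of 0.02 (SE 0.10).

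Early in the route, Hmgcs1 showed how far mice of the same genotype differed. Its abundance was 166, 189.6, 131, 135 and 101 in WT replicates 1 to 5, and 91.4, 128 and 161 as lowest, median and highest in Tnfr1-/-. WT colons alone spanned nearly the whole range of Tnfr1-/- colons and beyond. The log2 fold change was -0.16 (limma adjusted p = 0.802, SE 0.17). Fdps was at 126, 126, 105, 95.7 and 83.9 in WT and at 77.03, 98.9 and 104 in Tnfr1-/-; WT replicates 1 and 2 were the highest of all 11 libraries, and the other 9 interleaved. Its log2 fold change was -0.17 (limma adjusted p = 0.682, SE 0.12). Fdft1, squalene synthase, the first enzyme committed to sterols, was at 47.96, 63.04, 39.7, 41.5 and 34.3 in WT and at 31.8, 38.7 and 48.3 in Tnfr1-/-. WT replicate 2 was again the highest, and the log2 fold change was -0.17 (limma adjusted p = 0.746, SE 0.15). Without WT replicates 1 and 2 the log2 fold changes of Hmgcs1, Fdps and Fdft1 were 0.061, -0.0050 and 0.032.

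The other enzymes of the arm overlapped between genotypes as well. Mvk and Mvd, the mevalonate kinase and decarboxylase, had log2 fold changes of -0.12 and -0.17, and Sqle, squalene epoxidase, had -0.15. Nearer to 0 were Acat2 at -0.01, Pmvk at -0.03, Idi1 and Cyp51 both at -0.04, Dhcr7 at -0.05, Sc5d at -0.09 and Msmo1 at -0.11. Lss, at 0.12, and Tm7sf2, at 0.05, were on the positive side. Tm7sf2, a sterol reductase whose step another gene can also perform, was the steadiest enzyme of the arm, at 28.3 ± 0.762 (SD, n = 5) in WT against 29.3 ± 2.14 (SD, n = 6) in Tnfr1-/-.

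Among regulators, Srebf2 differed little between any of the colons. Its abundance was 60.5, 74.07, 67.8, 72.6 and 62.3 in WT replicates 1 to 5, and 59.9, 63.3 and 67.3 as lowest, median and highest in Tnfr1-/-. The groups overlapped, with a log2 fold change of -0.08 (limma adjusted p = 0.724, SE 0.06). Insig1, an SREBP target that feeds back on the pathway, was at 50.8, 59.0, 44.2, 48.6 and 40.7 in WT and at 34.2, 45.4 and 48.5 in Tnfr1-/-. It too overlapped, with a log2 fold change of -0.16 (limma adjusted p = 0.696, SE 0.11). Without WT replicates 1 and 2 it was -0.036. Its relative Insig2 was at 53.3, 57.8, 44.4, 45.2 and 27.3 in WT and at 37.8, 40.4 and 49.3 in Tnfr1-/-; WT replicate 5 was the lowest of all 11 and WT replicate 2 the highest (log2 fold change -0.09, SE 0.16, limma adjusted p = 0.910). Stard4, a sterol carrier between membranes, ran from 56.5 to 75.6 in WT and from 53.2 to 66.2 in Tnfr1-/-.

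**Figure D2:**
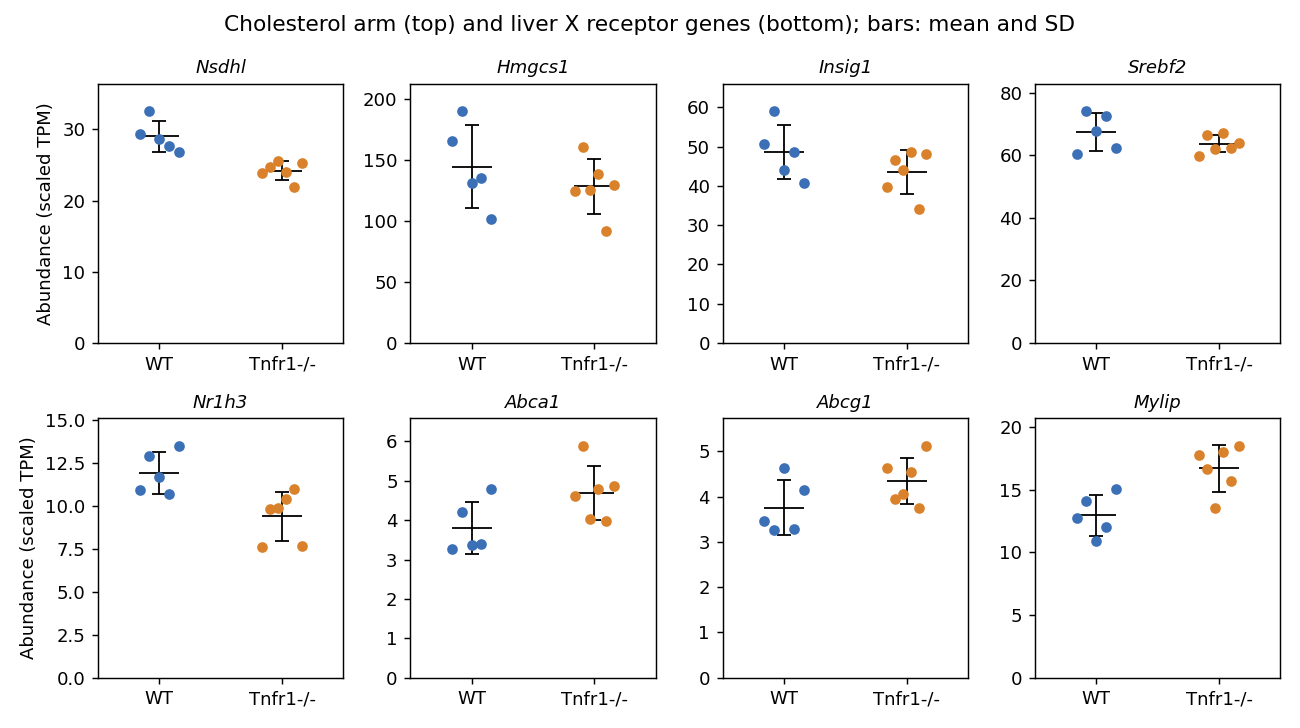
Each point is the abundance (scaled TPM, axis from 0) of a gene in 1 colon, blue for the 5 WT and orange for the 6 Tnfr1-/-; horizontal marks and bars are the mean and SD. Nsdhl is the 1 gene of the 8 whose groups do not overlap, with WT from 26.9 up and Tnfr1-/- up to 25.6.

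What stood out in the cholesterol arm was that its genes were high or low together in single animals of both genotypes. In WT replicate 2, 22 of 22 genes were above their own mean over the 11 libraries, in WT replicate 1, 20, and in Tnfr1-/- replicate 2, 19. In WT replicate 5 only 1 was above its mean, and in Tnfr1-/- replicate 5 only 3. The share of all tested genes above their own mean in each library is not given here, so these counts have no background beside them. The mean deviation of the arm on the log2 scale was 0.19, 0.33, -0.02, -0.03 and -0.22 in WT replicates 1 to 5. In Tnfr1-/- its lowest value was -0.26, in replicate 5, and its highest 0.14, in replicate 2, so the groups overlapped and the range among WT colons was wider. Over the 231 pairs of genes of the arm, 217 had a positive Pearson correlation across the 11 libraries, with a median of 0.63, against -0.0025 for pairs of all tested genes. This is a description: the points share the libraries and their scaling. After the group means were taken out the median was 0.65, and over the 9 libraries without WT replicates 1 and 2 it was 0.49.

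The genes most like the rest of the arm were Idi1, Fdps, Msmo1, Cyp51 and Hmgcs1, whose median correlation with the other arm genes over 11 libraries was 0.79, 0.79, 0.79, 0.77 and 0.76. Tm7sf2 stood aside at 0.0039, and Srebf2 RNA, at 0.38, followed its enzymes less closely than Sqle, at 0.75, or Insig1, at 0.67. Of the genes whose promoters are printed above, Hmgcs1 was at 0.76, Mvd at 0.73, Ebp at 0.49, Fasn at 0.44 and Abca1 at -0.02 in median correlation with the arm. Acat2, with none of the searched motifs in its window, was at 0.60. Tm7sf2 has a CCAAT box in its window too. Whether the motifs bear on these correlations was not tested.

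**Figure D3:**
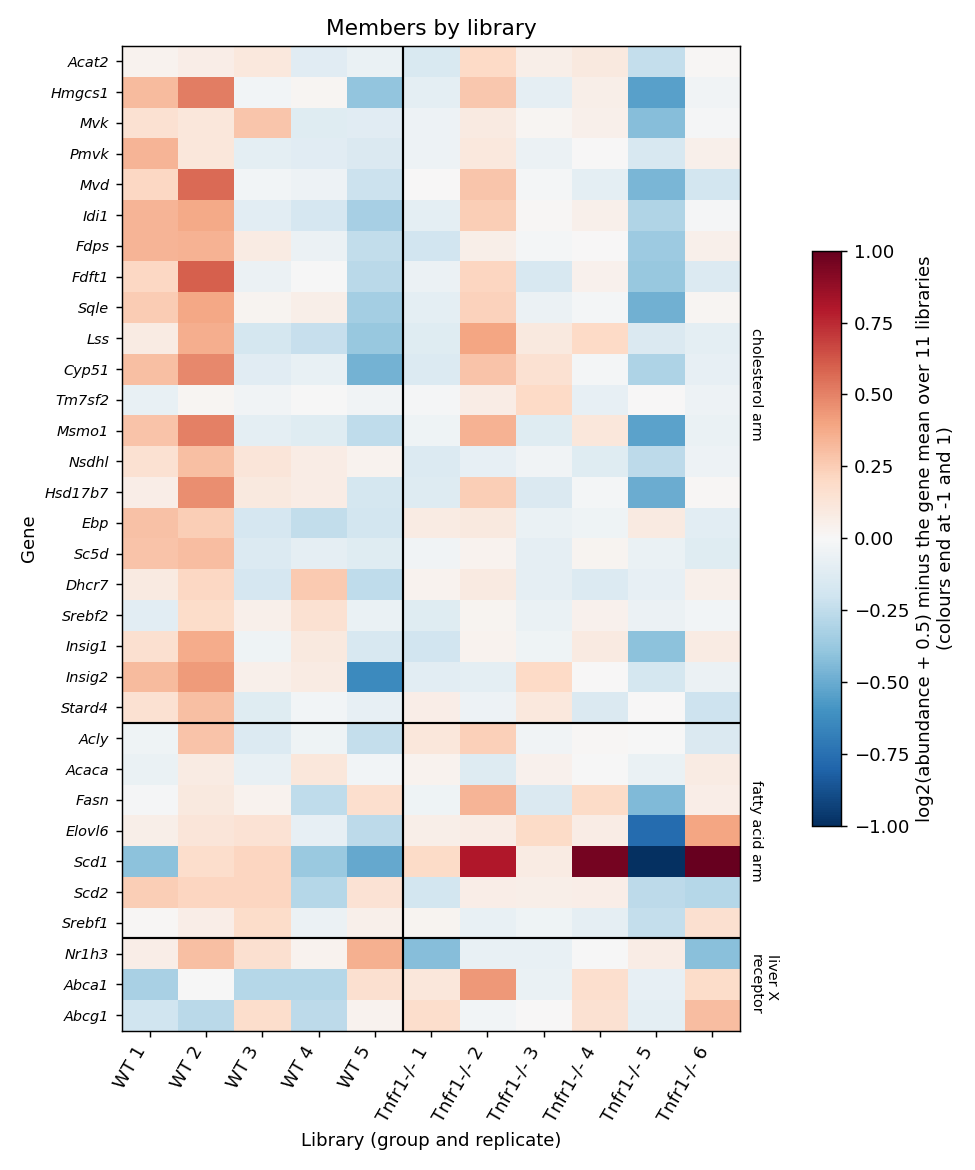
Rows are the 32 genes by arm, columns the 11 libraries, and colour is log2(abundance + 0.5) relative to that gene's average across all 11 libraries, in log2 units, with colours ending at -1 and 1. WT replicates 1 and 2 and Tnfr1-/- replicate 2 are red through most of the cholesterol arm, WT replicate 5 and Tnfr1-/- replicate 5 are blue, and Scd1 has the strongest colours of any gene.

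Epithelial markers were also highest in WT replicates 1 and 2, and in 9 of 11 libraries they deviated to the same side as the cholesterol arm; markers of dividing cells did so in 4 of 11. In Tnfr1-/- replicate 2 the epithelial deviation was 0.16 and the arm's 0.14, and in WT replicate 5 they were -0.28 and -0.22. The order of libraries was not the same throughout. Tnfr1-/- replicate 1 had the third highest epithelial deviation, 0.26, with a cholesterol arm at -0.07. Tnfr1-/- replicate 6 had the lowest epithelial deviation, -0.35, with an arm at -0.04, well above the -0.26 of Tnfr1-/- replicate 5. Markers of dividing cells were at 0.28 in WT replicate 1 and at -0.12 in WT replicate 2, although both were high in the cholesterol arm.

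**Figure D4:**
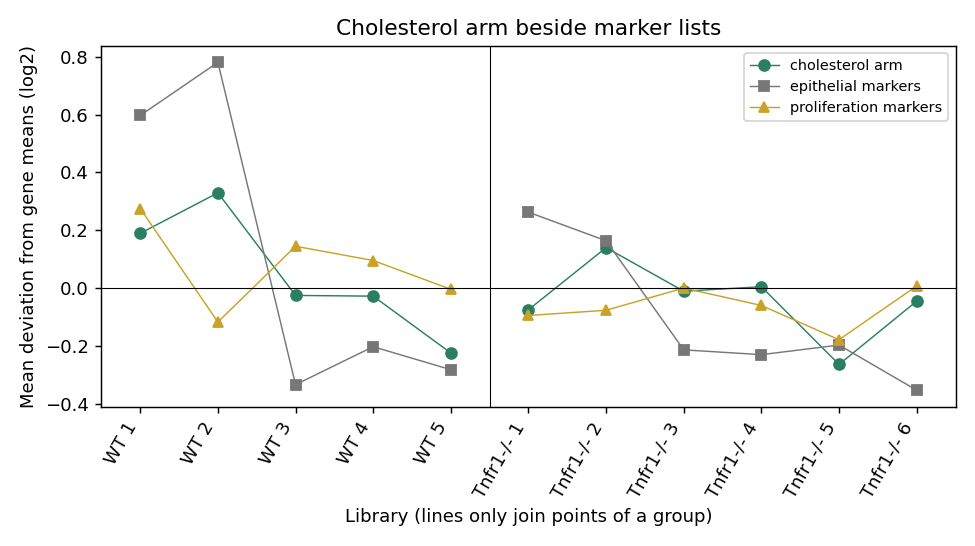
For each library the plot gives the mean deviation, in log2 units from each gene's mean over 11 libraries, of the 22 cholesterol arm genes, 12 epithelial markers and 9 proliferation markers; lines only join points of a group. The cholesterol arm peaks at 0.33 in WT replicate 2, where epithelial markers peak at 0.78, and is lowest at -0.26 in Tnfr1-/- replicate 5.

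The fatty acid arm was near even between genotypes, and its largest log2 fold changes, those of the desaturases Scd1 and Scd2, did not pass. Its 7 genes had a median log2 fold change of -0.01, with 4 negative and 3 positive; with columns rescaled to the same total 2 were negative. None was at an unadjusted p under 0.05. Acly, which makes cytosolic acetyl-CoA from citrate, was at 77.8, 98.0, 72.7, 77.9 and 67.9 in WT replicates 1 to 5 and at 72.4, 80.4 and 94.5 as lowest, median and highest in Tnfr1-/-. The groups overlapped, with a log2 fold change of 0.06 (limma adjusted p = 0.869, SE 0.09). Acaca, acetyl-CoA carboxylase, which commits carbon to fatty acids, was at 10.8, 12.1, 10.8, 12.4 and 11.1 in WT and at 10.3, 11.5 and 12.1 in Tnfr1-/-. It was the steadiest of all 32 genes, with a coefficient of variation of 5.74% over the 11 libraries and a log2 fold change of -0.01 (limma adjusted p = 0.973, SE 0.06).

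Fasn, the synthase that builds palmitate, was at 53.9, 58.3, 55.6, 45.4 and 61.1 in WT and at 39.8, 54.8 and 69.1 in Tnfr1-/-. Tnfr1-/- colons spread to both sides of WT, and the log2 fold change was -0.01 (limma adjusted p = 0.985, SE 0.13). Elovl6, which lengthens palmitate, was at 34.6 ± 3.95 (SD, n = 5) in WT against 35.6 ± 8.41 (SD, n = 6) in Tnfr1-/-, with a low value of 20.1 in Tnfr1-/- replicate 5. Its log2 fold change was 0.01 (limma adjusted p = 0.994, SE 0.17), and it was -0.07 with the replicate number as a block. Srebf1 was at 49.7, 51.5, 56.05, 47.3 and 51.1 in WT and at 41.8, 47.3 and 55.3 in Tnfr1-/-, with overlap (log2 fold change -0.09, SE 0.07, limma adjusted p = 0.710).

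The stearoyl-CoA desaturases, which put the double bond into stearate, differed in how they varied. Scd2 was the most abundant of the 32 genes, at 325, 317, 318, 224 and 302 in WT replicates 1 to 5 and at 225, 263 and 287 in Tnfr1-/-. WT replicate 4 was the lowest of all, and the other 4 WT colons were above all 6 Tnfr1-/- colons. The log2 fold change of Scd2 was -0.19 (limma adjusted p = 0.621, SE 0.11), and -0.29 without WT replicate 4 (limma adjusted p = 0.274). Leaving out the lowest WT library makes this difference more negative by construction. Scd1 was at 36.9, 55.5, 57.1, 38.0 and 34.4 in WT replicates 1 to 5, and in Tnfr1-/- replicates 1 to 6 at 56.4, 85.9, 52.1, 96.1, 10.8 and 99.2. Tnfr1-/- colons thus held both the lowest value and the 3 highest ones. Scd1 varied most of the 32 genes, with a coefficient of variation of 48.6%. Its log2 fold change was 0.33 (SE 0.50, 95% interval -0.76 to 1.42, limma adjusted p = 0.875). Without Tnfr1-/- replicate 5 it was 0.79 (limma adjusted p = 0.326, SE 0.22), which did not pass either. Leaving out the lowest Tnfr1-/- library raises this difference by construction. Scd1 and Scd2 lie on chromosome 19 at 44394455 to 44407879 and 44293674 to 44306864 (GRCm38), beside further copies of the family, so reads may have been split between near copies and the separate values are uncertain.

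Scd1 moved with genes of sebaceous glands, the oil glands of skin. Awat1, a wax synthase of those glands, was at 3.83 to 7.53 in WT and at 13.02, 13.2, 7.72, 8.83, 0.379 and 11.7 in Tnfr1-/- replicates 1 to 6. Elovl3, an elongase of the same glands, which is also in the list of other fatty acid genes, was at 5.12 to 10.7 in WT and 0.302 to 20.5 in Tnfr1-/-. For both, Tnfr1-/- replicate 5 was the lowest library, as for Scd1. Scd3, another desaturase, was at 0.498 in Tnfr1-/- replicate 5 and between 4.29 and 17.3 in the other 10 libraries. Of the 9 sebaceous and skin markers 8 passed the filter on low values, none was at 0 in any library, and 7 of the 8 had a positive log2 fold change, with a median of 0.30. Their summed level was 368 to 565 in WT and 133 to 1114 in Tnfr1-/-, with 133 in Tnfr1-/- replicate 5 and at least 633 in the other 5 Tnfr1-/- colons. Adipocyte markers were also high where Scd1 was highest: their summed level was 620.2, 530.3 and 722 in Tnfr1-/- replicates 2, 4 and 6, against 241 to 344 in WT. It was 302 in replicate 1, 217 in replicate 3 and 322 in replicate 5, where Scd1 was lowest. The part of skin or fat in the Scd1 values was not tested.

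**Figure D5:**
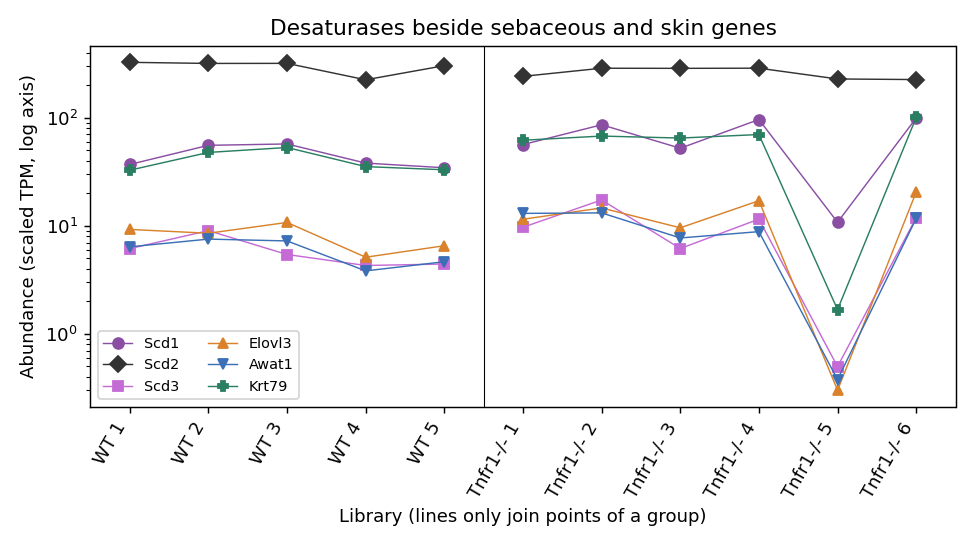
Abundance (scaled TPM, log axis) is drawn by library for the desaturases Scd1, Scd2 and Scd3 and for Elovl3, Awat1 and Krt79, genes of sebaceous glands and skin; lines only join points of a group. All but Scd2 drop in Tnfr1-/- replicate 5, where Scd1 is at 10.8 and Krt79 at 1.68, while Scd2 stays between 224 and 325 in the 11 libraries.

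In the liver X receptor arm the receptor gene and its targets lay on opposite sides. Nr1h3, which encodes the receptor LXR-alpha, was at 10.9, 12.9, 11.7, 10.7 and 13.5 in WT replicates 1 to 5 and at 7.63, 9.88 and 11.02 as lowest, median and highest in Tnfr1-/-. Of 6 Tnfr1-/- colons 5 were below every WT colon, and 1, replicate 5, was inside the WT range. Its log2 fold change was -0.34 (SE 0.11, 95% interval -0.57 to -0.10, limma adjusted p = 0.404), and it was negative in 21 of 21 other settings, from -0.38 to -0.28. The gene lies on chromosome 2 at 91184061 to 91202834 (GRCm38). LXR-alpha is made by macrophages as well as epithelium. Macrophage markers had a negative log2 fold change in 7 of 8 tested genes, with a median of -0.18; their summed level was 141 to 198.8 in WT and 111 to 177 in Tnfr1-/-, and none was at 0. The libraries did not keep 1 order. Tnfr1-/- replicate 5 was the highest of its group in both macrophage markers and Nr1h3, WT replicate 4 had the highest macrophage deviation of all 11 (0.35) with the lowest Nr1h3 in WT, and Tnfr1-/- replicate 2 had the lowest (-0.44) with Nr1h3 at 9.85. The part of macrophages in the Nr1h3 values was not tested.

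The targets were the least abundant of the 32 genes. Abca1, which passes cholesterol to lipid-poor apolipoproteins, was at 3.27, 4.21, 3.37, 3.39 and 4.78 in WT and at 3.97, 4.70 and 5.88 in Tnfr1-/-. The groups overlapped, with 3 of 6 Tnfr1-/- colons above every WT colon. The log2 fold change of Abca1 was 0.27 (SE 0.12, 95% interval 0.01 to 0.54, limma adjusted p = 0.522). Abcg1, which exports cholesterol to lipoprotein particles, was at 3.45, 3.26, 4.62, 3.29 and 4.15 in WT and at 3.75, 4.30 and 5.11 in Tnfr1-/-. It overlapped as well, with a log2 fold change of 0.19 (limma adjusted p = 0.618, SE 0.11). Both targets stayed positive in all other settings that tested them, the lowest values being 0.21 for Abca1 and 0.10 for Abcg1.

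Other genes of these pathways, listed by name, gave no call either. Of 23 other sterol genes 12 had a negative and 11 a positive log2 fold change, with a median of -0.03; 3 of the negative and 2 of the positive ones were at an unadjusted p under 0.05, or 21.7% of the list, against 9.37% of all genes. Among those higher in Tnfr1-/- was Cyp27a1, which makes an oxidised cholesterol, at 10.7 ± 1.66 (SD, n = 5) in WT against 13.1 ± 1.69 (SD, n = 6) in Tnfr1-/- (limma adjusted p = 0.504). Among those lower was Ch25h, another enzyme that makes an oxidised cholesterol, at 1.54 ± 0.344 in WT and 1.13 ± 0.192 in Tnfr1-/- (log2 fold change -0.32, limma adjusted p = 0.504), near the minimum level for a test. Of 24 other fatty acid genes 23 were tested, 11 of them negative, with a median of 0.0042, and 2 were at an unadjusted p under 0.05 (8.70%). The smallest p there belonged to Slc25a1, the mitochondrial citrate carrier, at 96.9 ± 7.39 (SD, n = 5) in WT against 85.7 ± 4.87 (SD, n = 6) in Tnfr1-/-, and to Mcat, of mitochondrial fatty acid synthesis, at 14.2 ± 1.02 and 12.5 ± 0.787 (limma adjusted p = 0.414 and 0.433). Of 12 other liver X receptor genes 8 were positive, with a median of 0.09, and 1 was at an unadjusted p under 0.05 (8.33%). Mylip, a liver X receptor target whose product sends lipoprotein receptors for degradation, had the smallest p of that list. It was at 12.8, 14.1, 10.9, 12.05 and 15.1 in WT replicates 1 to 5 and at 13.6, 17.2 and 18.5 as lowest, median and highest in Tnfr1-/-. Of 6 Tnfr1-/- colons 5 were above every WT colon (log2 fold change 0.35, SE 0.10, limma adjusted p = 0.355). Rxrb, a partner receptor of the liver X receptors, was at 28.1 ± 1.76 and 30.7 ± 2.39 (limma adjusted p = 0.572).

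Single transcripts of the 32 genes gave no call, against 0.00902% of all transcripts tested. Of their 180 transcripts 83 were tested, and 5 were at an unadjusted p under 0.05 (6.02%), against 8.26% of all 33276 transcripts tested. The smallest limma adjusted p was 0.324, that of Insig1-202, a transcript with a retained intron (ENSMUST00000199728.1, 4.18% of the gene's abundance). It was at 2.36, 2.76, 2.31, 3.37 and 2.40 in WT replicates 1 to 5 and at 0.734, 1.23 and 1.86 in Tnfr1-/-, with no overlap. The main Srebf1 transcript, Srebf1-201 (ENSMUST00000020846.7), made up 49.4% of its gene and was at 26.6 ± 2.60 (SD, n = 5) in WT against 22.6 ± 2.60 (SD, n = 6) in Tnfr1-/- (log2 fold change -0.23, limma adjusted p = 0.567). Another coding Srebf1 transcript (ENSMUST00000144942.1) lay the other way, at 3.23 ± 3.39 and 5.72 ± 1.48, with a limma adjusted p of 0.621. The other Srebf1 transcripts with a mean of at least 1 had adjusted p from 0.727 to 0.950 in the same limma fit. The other transcripts at an unadjusted p under 0.05 were those of Nsdhl and Abca1 that carry nearly all of their genes, and Fdft1-202 (ENSMUST00000223810.1), at 3.01 ± 1.44 and 1.65 ± 0.475.

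Much of the spread of Insig2 between mice lay in short transcripts. Its full-length coding transcript, Insig2-201 (ENSMUST00000003818.13), was at 26.7, 24.5, 24.9, 21.4 and 22.9 in WT replicates 1 to 5 and at 20.5, 24.3 and 29.1 in Tnfr1-/-, with a log2 fold change of 0.03 (SE 0.09). A transcript of 334 bases with a retained intron, ENSMUST00000159528.1, was at 20.3, 20.3, 14.1, 10.7 and 1.07 in WT and at 6.42, 11.1 and 15.9 in Tnfr1-/-. The other Insig2 transcripts with a mean of at least 1, both short, had limma adjusted p of 0.776 and 0.796. In WT replicate 5 the low Insig2 value lay in short transcripts: beside the retained intron, a short coding transcript (ENSMUST00000159125.1) was at 0.170 there and at 3.37 to 10.9 in the other WT colons, while the full-length one was within its WT range. Single-end reads of 75 bases leave the split among overlapping transcripts uncertain, and the per-length scale lifts short transcripts. In the authors' deposited table, 4 of 116 transcripts of these genes with a p-value were under 0.05 (3.45%), against 4.39% of 49778 transcripts that have a gene, and their smallest q-value was 0.693, for Nsdhl.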

How the data were processed

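RNA came from whole colons, homogenised in Trizol and isolated with the Direct-zol kit; stranded mRNA libraries gave single-end reads of 75 bases on a NextSeq, per the labels' protocols. CASAVA, kallisto, sleuth and mm10 are named, without versions, per the submitters' processing notes. For every transcript and mouse the authors deposited 1 signal value, which is TPM over a size factor of that library. The authors deposited a p-value and a q-value of their own test for each transcript. The authors deposited the ratio of the group means as a fold change. The authors deposited the log2 of that ratio. The authors deposited a mean observation as the natural log of normalized estimated counts. Of lines that repeat a transcript (584 transcripts, with equal values) 1 was kept, and transcripts were added up by gene. Gene positions come from GENCODE on GRCm38 and promoters from RefSeq. Depth was estimated as the factor that put most low values within 0.02 of a whole read, which held for 54.4% to 56.1% of them; the other values were not whole, so no count test was made. By that estimate, 28 genes of the set that have transcript lengths had at least 303 reads in each library.

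The main comparison used limma 3.58.1 (R 4.3.3), with its variance trend along mean level, applied to log2(value + 0.5). It was two-sided and adjusted by Benjamini-Hochberg over every gene that reached 1 in at least 5 libraries. This scale understates the change of low genes. The fit was tested on simulated data. Tables and plots were made with Python 3.11.15 (pandas 2.3.3, numpy 2.4.6, matplotlib 3.10.9). Members and lists were chosen with earlier results of these data known. The text gives full values for the 6 genes of smallest p per arm, genes whose groups do not overlap, the 2 most and 2 least abundant, and the regulators. Of each further list it gives the 2 of smallest p, and of transcripts the 6 of smallest p; other names were picked after their values were seen. A few genes taken by this rule are left out here. Alternatives changed the pseudocount (1, 0.1), the filter (none, 10), the scaling, the weights, the trend and the replicate block, or left out libraries; leaving out WT replicates 1 and 2 together was added after the data were seen.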

Additional observations from a re-analysis of the deposited data

Results flagged for a closer look

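Each of the 32 genes was checked in each genotype, 64 groups of values, for 1 mouse standing well away from its group. There were 2 such cases, against about 3.2 by chance. The groups share libraries and the genes vary together, so the 64 are not independent checks and 3.2 is only a rough guide. In Tnfr1-/- replicate 5 Mvk was at 17.0, with the next lowest Tnfr1-/- colon at 22.2. In WT replicate 4 Scd2 was at 224, with the next lowest WT colon at 302.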

How the results depend on the processing

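No gene of the set was called at an adjusted p under 0.05 in any of the alternatives run, and no transcript in those run on transcripts (pseudocount 1, no filter, rescaling, the block and leaving out libraries). Of the 32 genes 15 kept the direction of their log2 fold change in all alternatives that tested them, Nsdhl, Nr1h3 and Abca1 among them, and 17 turned in at least 1. For Nsdhl, whose groups do not overlap, leaving out libraries could not have turned it. The number at an unadjusted p under 0.05 was 3; leaving out 1 library at a time gave 2 to 5, with 5 without WT replicate 5. Same-numbered libraries gave no clear pairing, though 5 pairs cannot settle it. Over these pairs the correlation of deviations ran from -0.22 to 0.38, with 3 over 0.1. Only 1 library pair matched best by its own number. With the replicate number as a block, 6 genes were at an unadjusted p under 0.05 and Elovl6 turned to -0.070, the value it also had without Tnfr1-/- replicate 6, which has no partner under the block. The count of cholesterol arm genes that were lower, 19 of 22, was 9 with quality weights and 6 without WT replicates 1 and 2; leaving out 1 library at a time gave 15 to 20.

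Log2 fold changes that turned were as follows. Rescaling to the same total gave Acat2 0.010, Acaca 0.0064 and Fasn 0.0067. Quantile normalization gave Acat2 0.0030 and Fasn 0.0099. Quality weights gave Acat2 0.0024, Hmgcs1 0.010, Pmvk 0.042, Idi1 0.10, Cyp51 0.14, Msmo1 0.032, Sc5d 0.018, Dhcr7 0.034, Insig2 0.12, Stard4 0.0042 and Acaca 0.023. Leaving out WT replicates 1 and 2 gave Acat2 0.021, Hmgcs1 0.061, Pmvk 0.10, Mvd 0.020, Idi1 0.18, Fdft1 0.032, Sqle 0.015, Cyp51 0.20, Msmo1 0.11, Sc5d 0.076, Dhcr7 0.029, Insig2 0.13, Stard4 0.041 and Fasn 0.013. Leaving out 1 library at a time took Acat2 from -0.049 to 0.038, Pmvk from -0.076 to 0.046, Idi1 from -0.13 to 0.048, Cyp51 from -0.17 to 0.072, Ebp from -0.039 to 0.096, Dhcr7 from -0.12 to 0.0063, Insig2 from -0.26 to 0.0095, Acaca from -0.032 to 0.016, Fasn from -0.082 to 0.076 and Elovl6 from -0.070 to 0.16. Apart from that of leaving out libraries, which changes the samples, the cause was not tested. The filter at 10 left Abca1 and Abcg1 untested. DESeq2 and edgeR were not run, since the table holds no counts. Depth did not keep any of the 32 genes from being tested, and the number of mice limits the precision.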
